A study of Mus musculus with 23 samples.

Results

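The Zfp genes are mouse genes whose symbol is Zfp followed by a number, a series of zinc finger genes numbered as they were found. They were taken from the deposited gene tables of the precipitated and the flow-through RNA by symbol alone, without regard to their values. Of 9480 genes with a symbol in either table, 203 were members. The table of the precipitated RNA (HA) held 202 of its 9363 genes as members, and the flow-through table (FT) held 73 of 4898. 72 members stood in both, 130 in the HA table only, and 1 (Zfp804b, with 11 reads) in the FT table only. By GENCODE annotation 200 members are protein-coding and 3 are an antisense transcript or pseudogenes.

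The libraries came from spinal cord of young adult mGFAP-Cre-RiboTag mice, which carry a hemagglutinin (HA) tag on the ribosomes of cells in which Cre was driven by a mouse Gfap promoter. All animals had a severe crush of the cord (spinal cord injury, SCI) at thoracic level 10, and the central 3 mm of the lesion was collected at 14 days. RNA pulled down through the tag, meant to be bound to astrocyte ribosomes, was sequenced apart from the flow-through of the same homogenates. Every library carries the genotype label "Wild type". 3 treatments were compared in each fraction: SCI only (4 HA and 4 FT libraries), SCI with a hydrogel labelled CT (3 HA, 4 FT), and SCI with a hydrogel carrying growth factors, here GF (3 HA, 5 FT). The depots were injected 2 days after injury. The series title names FGF and EGF, whereas the deposited column headers name BDNF and NT3 for the growth factor gel and "Em" for the CT gel, and the sources used here do not settle which factors were given. Library titles hold numbers of 9596 to 9935 without a gel and of 1645 to 1762 with one, so a gel effect and a difference between these cohorts cannot be told apart. Whether each library came from its own animal is not stated, and the p-values cover only the spread among libraries, which may be technical in part.

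Zinc fingers are short protein folds held together by a zinc ion. In the C2H2 type, 2 cysteines and 2 histidines hold the zinc, and arrays of such fingers read DNA sequence. Many mouse C2H2 genes also encode a KRAB box, which recruits the corepressor Trim28 (KAP1) and the methyltransferase Setdb1 to silence chromatin, often at retroelements. The CCCH type, found in Zfp36 and its relatives, binds AU-rich elements of messenger RNA and hastens its decay. In the cord, Zfp488 is known from the oligodendrocyte lineage and Zfp36 family members from inflammatory responses.

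The finger coding sequences of members that the results turn on show the features that define them. Each runs from the first to the last zinc-binding residue, 5′ to 3′ on the coding strand, read from the GENCODE M21 transcript with the longest coding sequence (GRCm38/mm10). Capitals mark the 4 codons for the zinc-binding cysteines and histidines. Each finger lies within 1 coding exon.
Zfp652 (finger 1 of 7, chr11:95749986-95750051, plus strand, exon 2 of 6): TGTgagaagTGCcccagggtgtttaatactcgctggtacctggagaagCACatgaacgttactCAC
Zfp91 (finger 2 of 5, chr19:12774824-12774892, minus strand, exon 9 of 11): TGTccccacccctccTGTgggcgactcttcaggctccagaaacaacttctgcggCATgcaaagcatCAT
Zfp395 (finger 1 of 1, chr14:65392079-65392150, plus strand, exon 6 of 10): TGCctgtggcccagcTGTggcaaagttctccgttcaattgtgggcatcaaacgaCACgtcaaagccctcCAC
Zfp462 (finger 1 of 33, chr4:55007578-55007643, plus strand, exon 2 of 13): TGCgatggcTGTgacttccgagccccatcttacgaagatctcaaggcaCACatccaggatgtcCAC
Zfp488 (finger 1 of 2, chr14:33970320-33970385, minus strand, exon 2 of 2): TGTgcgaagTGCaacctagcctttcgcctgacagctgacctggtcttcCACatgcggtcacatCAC
Zfp871 (finger 1 of 15, chr17:32775555-32775617, minus strand, exon 4 of 4): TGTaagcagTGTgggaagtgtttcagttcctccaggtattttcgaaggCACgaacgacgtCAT
Zfp81 (finger 1 of 11, chr17:33335107-33335169, minus strand, exon 4 of 4): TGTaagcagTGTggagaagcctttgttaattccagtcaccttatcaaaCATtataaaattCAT
Zfp37 (finger 1 of 12, chr4:62192118-62192180, minus strand, exon 4 of 4): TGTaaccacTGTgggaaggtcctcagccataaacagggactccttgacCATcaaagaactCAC
The lone finger of Zfp706 crosses an exon junction and is not shown. The fingers of Zfp871, Zfp81 and Zfp37 have the compact spacing of long arrays, and Zfp871 and Zfp81 were identical at 35 of 63 bases. In the CCCH members the order of the capitals changes to 3 cysteines and 1 histidine.
Zfp36 (finger 1 of 2, chr7:28378158-28378217, minus strand, exon 2 of 2): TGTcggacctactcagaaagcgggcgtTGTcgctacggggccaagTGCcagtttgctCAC
Zfp36l1 (finger 1 of 2, chr12:80110189-80110248, minus strand, exon 2 of 2): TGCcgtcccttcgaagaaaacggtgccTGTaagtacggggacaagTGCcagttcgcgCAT
Zfp36l2 (finger 1 of 2, chr17:84186668-84186727, minus strand, exon 2 of 2): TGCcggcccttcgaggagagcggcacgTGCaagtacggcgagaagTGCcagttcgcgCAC
The first CCCH fingers of Zfp36l1 and Zfp36l2 were identical at 49 of 60 bases, and that of Zfp36 matched them at 42 and 40 bases.

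Of the 200 members with a coding sequence, 192 held at least 1 C2H2 finger, with a median of 10 and a maximum of 36 in Zfp142, whose gene lies on chr1:74565127-74588246. 111 members had 10 or more. 8 members matched no C2H2 finger: the 3 CCCH genes Zfp36, Zfp36l1 and Zfp36l2, and Zfp330, Zfp365, Zfp503, Zfp703 and Zfp839. A KRAB box pattern was found in 88 members (44%) and a SCAN domain pattern in 4. The longest annotated protein was that of Zfp292 (2698 residues) and the shortest that of Zfp706 (76 residues).

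Many members sit in tandem clusters. Chromosome 7 held 46 members (22.7% of them, against 7.07% of the listed protein-coding genes), and chromosome 17 held 27 (13.3% against 4.78%). 11 runs of at least 4 members, with less than 500000 bases between neighbours, contained 72 members. The longest run, on chr17:32765496-33394641, held 12 members, 11 of them with a KRAB box, from Zfp871 to Zfp101. Within it Zfp871 had 4233 reads in the HA libraries, whereas the median of the run was 91.5. A run of 10 KRAB members on chr17:21008903-22867134 had no gene in the FT table, and its most counted member, Zfp160, had 299 HA reads. Near-identical copies can share reads: 52.0% of the 50-base words of the listed Zfp955a transcript also occur in another member, all of them in Zfp955b, and 9 members exceeded 10%. Among members named below, Zfp868 shared 6.52% of its words with Zfp869, while Zfp706, Zfp91, Zfp652, Zfp462, Zfp36l1 and Zfp37 shared none.

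The depth available to the members was small. Total counts ran from 7940025 to 24337017 in the HA libraries and from 19607 to 5432938 in the FT libraries, and the row of the noncoding gene Yam1 alone took 87.8% to 93.1% of the HA SCI only counts. Counts on protein-coding genes other than Lars2, whose row takes up reads of ribosomal type, made up 0.90% to 3.92% of the HA SCI only libraries, 26.3% to 46.1% of HA CT and 3.56% to 14.5% of HA GF. All levels below are CPM, counts scaled to the effective library size. 1 read was worth 0.0129 to 0.279 CPM in the HA libraries and 0.703 to 37.1 CPM in the FT libraries. Astrocyte markers passed the test as higher in HA than FT for 13 of 15 tested, and microglial and macrophage markers as lower for 8 of 9, while endothelial and mural markers summed to at most 6.47 CPM in any HA library. Summed microglial and macrophage markers in FT were 7170 to 17825 CPM in SCI only, 160 to 3877 in CT and 108 to 2115 in GF. Single markers did not all follow the sum. Of 6 tested in FT, GF against SCI, 3 passed as lower and 1 as higher. The latter was Cx3cr1, at 203 CPM in GF and 16.1 in SCI only (log2 3.51, adjusted p = 0.0376, edgeR). In FT, CT against SCI, 1 of 6 passed, as lower. In bulk RNA, fewer cells of a type and less RNA per cell cannot be told apart.

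The Zfp genes were sparsely read. The HA libraries held 1017 to 4392 member reads in SCI only, 21177 to 37279 in CT and 1674 to 10517 in GF, whereas the FT libraries held 10 to 1323. As a share of protein-coding counts the members were steadier, at 0.542% ± 0.0785 (SD, n = 4) in HA SCI only, 0.687% ± 0.0519 (n = 3) in HA CT and 0.637% ± 0.0496 (n = 3) in HA GF. In FT the shares were 0.533% ± 0.0315 (n = 4), 0.450% ± 0.109 (n = 4) and 0.496% ± 0.141 (n = 5). The HA ranges of CT (0.643% to 0.744%) and SCI only (0.462% to 0.642%) adjoined without overlap, and GF (0.592% to 0.690%) overlapped both.

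**Figure D1:**
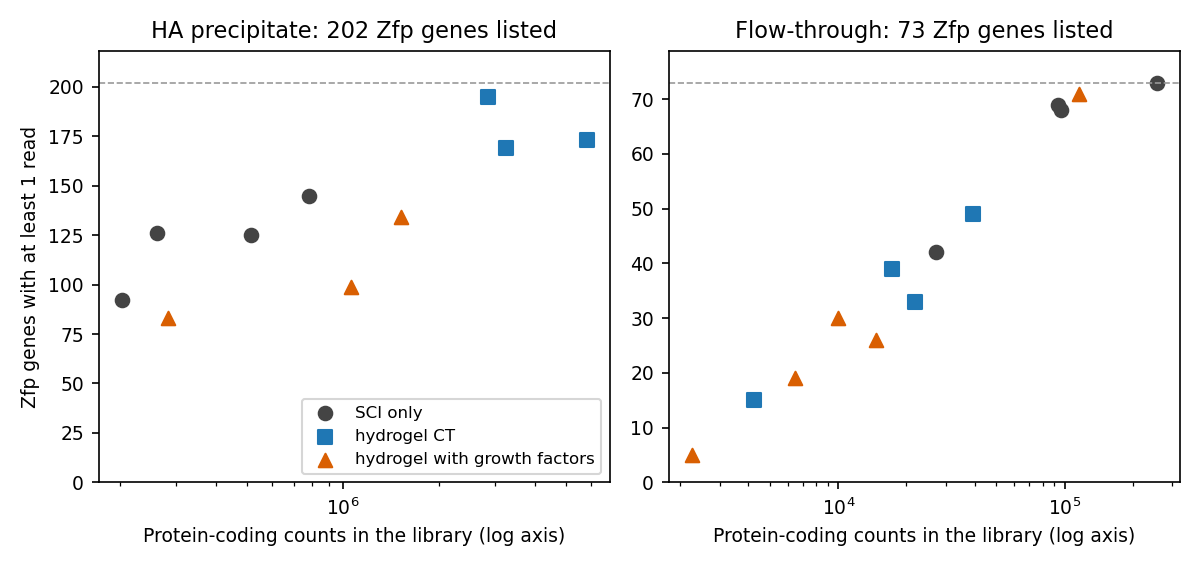
Number of Zfp genes with at least 1 read (vertical axis) against the counts on protein-coding genes in the library (horizontal log axis), for the 10 HA libraries on the left and the 13 flow-through libraries on the right. Each point is 1 library, coloured by treatment, and the dashed line marks the members listed (202 and 73). The HA CT libraries lie highest, from 169 to 195 members, and also have the most protein-coding counts.

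Among the HA libraries, detection was highest in CT, the group with the most protein-coding counts. In HA SCI only, 145, 126, 125 and 92 of the 202 members had a read, in HA CT 195, 169 and 173, and in HA GF 134, 83 and 99. When each HA library was reduced to the 202251 protein-coding counts of the smallest one, the expected number among the 199 protein-coding members became 91.0 to 121 in SCI only, 109 to 142 in CT and 74.97 to 81.9 in GF. The 3 GF libraries then lay below all others. The same held for protein-coding genes as a whole, of which 55.4% to 58.6% were expected in GF against 67.1% to 78.0% in the other HA libraries. Only 37 members (18.3%) were read in every HA library, against 39.2% of protein-coding genes. In the FT libraries detection ran from 5 of 73 in a GF library to all 73 in a SCI only library, and only Zfp706 was read in all 13.

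Reads were concentrated in a few members. The 10 most counted members took 40.7% of the 108530 member reads in HA, the median member had 167 reads (protein-coding genes: 407), and 48 members had fewer than 50. The 10 were Zfp706, Zfp91, Zfp871, Zfp770, Zfp395, Zfp488, Zfp46, Zfp652, Zfp60 and Zfp148. In FT the most counted were Zfp706 (550 reads), Zfp91 (157), Zfp704 (117), Zfp36l2 (105), Zfp592 (102) and Zfp385a (102).

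Zfp706, a single-finger protein of 76 residues, was the most abundant member on both scales. Per kilobase of its listed transcript the HA level was 4.47 CPM in SCI only, 10.7 in CT and 9.67 in GF, the highest of all members as a mean over the 3 groups. In GF alone Zfp560 was higher, at 11.6 CPM per kilobase. The HA levels of Zfp706 were 26.8, 26.4, 8.26 and 17.6 CPM in SCI only, 33.3, 37.1 and 71.9 in CT, and 42.9, 33.4 and 51.9 in GF. Every hydrogel library was above every SCI only library. Of all genes tested, 18.9% had CT and SCI only libraries that did not overlap, and 14.2% GF and SCI only libraries. The differences of Zfp706 did not pass the test, with a log2 difference of 1.26 (SE 0.57, adjusted p = 0.371, edgeR) for CT against SCI and 1.11 (SE 0.57, adjusted p = 0.277, edgeR) for GF against SCI.

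The other abundant members spread widely within a group. Zfp871, a KRAB gene with 15 fingers, had 362, 2973 and 273 reads in the 3 HA CT libraries, and Zfp46 had 2153, 498 and 210. Zfp148, a factor known to bind GC-rich promoters, had 8, 6, 184 and 1 reads in SCI only. Zfp60 had 296 reads in 1 HA GF library and 0 in the other two. Such zeros were common among members: of 52 members with at least 50 reads in some HA GF library, 24 (46.2%) had 0 in another, against 20.9% of protein-coding genes chosen the same way. The 2 sets were not matched for level, with a median of 167 HA reads per member against 407 per protein-coding gene. The HA GF libraries also ran from 282683 to 1523515 protein-coding counts. The part of low counts in these zeros was not tested. In HA SCI only the figures were 8 of 36 members (22.2%) against 9.19%, and in HA CT 13 of 119 (10.9%) against 6.18%.

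The first question of the design was whether either gel changed RNA bound to tagged ribosomes. Of the 118 members that passed the filter on low counts in HA, edgeR's quasi-likelihood test called 0 in CT against SCI (0.195% of 6654 genes tested were called), 0 in GF against SCI (0.436%) and 0 in GF against CT (0.0902%). At an unadjusted p under 0.05 there were 17 members (14.4%, against 12.7% of all genes), 29 (24.6%, against 21%) and 20 (16.9%, against 13.3%). Of the members to which DESeq2 gave an adjusted p, it called 3 of 117 in CT against SCI (2 higher, 1 lower; 2.56%, against 4.21% of all genes with one). It called 13 of 111 in GF against SCI (5 higher, 8 lower; 11.7%, against 11.4%) and 2 of 104 in GF against CT, both lower (1.92%, against 4.84%). The members' median log2 differences were 0.45, 0.44 and -0.30, beside 0.27, 0.12 and -0.14 over all genes tested. With the 5, 11 and 8 members that were at 0 in a whole group set at their lower bound, the medians were 0.45, 0.39 and -0.30. With a correction for transcript GC content the members' medians became -0.26, 0.43 and 0.51 and those of all genes -0.13, 0.45 and 0.57, so their sign in CT against SCI and in GF against CT turned with this choice. The median in GF against SCI also rested on single libraries: it was -0.56 without GF library 1685 and -0.41 without GF library 1732 (all genes: -0.37 and -0.24). In GF against CT it ran from -1.67 to -0.04 when 1 library was left out. 57 of the 118 members (48.3%, against 38.3% of all genes) reached the filter's level in all 3 CT libraries and in fewer than 3 of each other group. These counts and medians therefore describe the members that passed and no more.

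**Figure D2:**
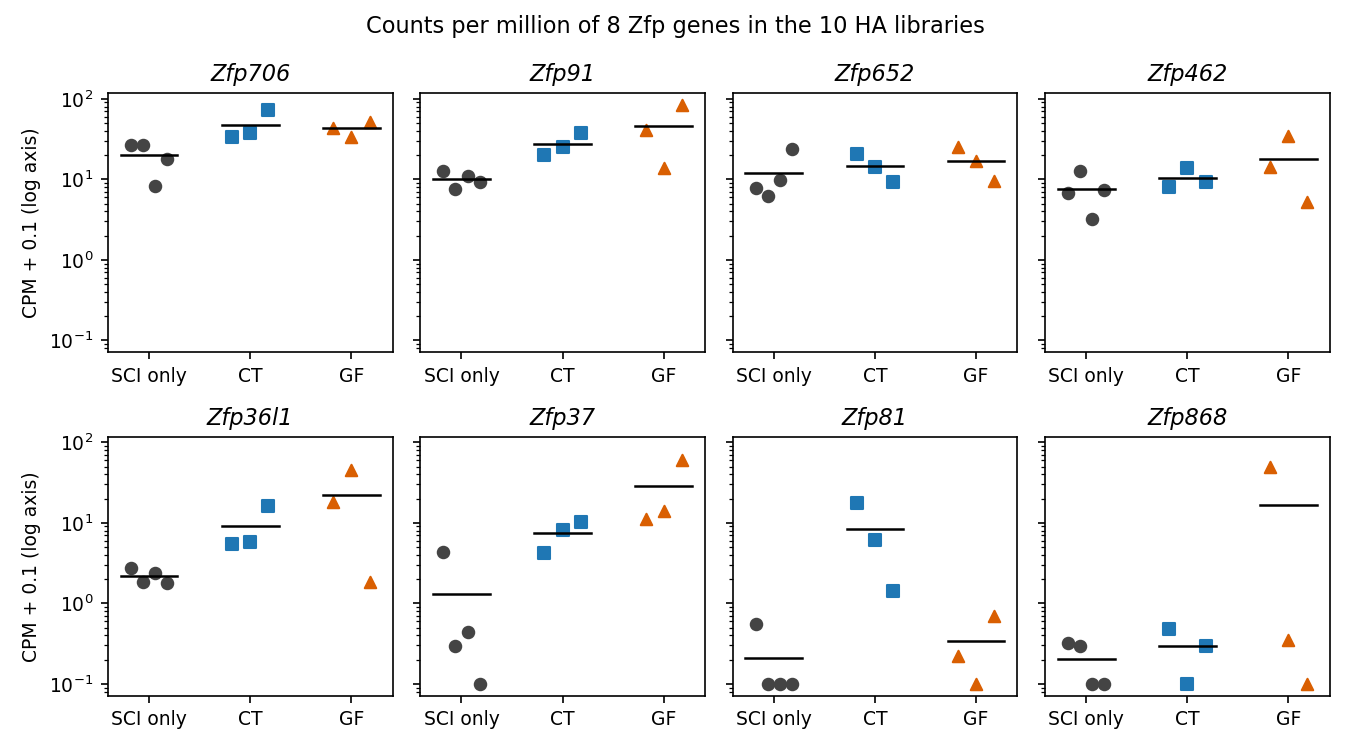
Level of 8 Zfp genes in each HA library, as CPM with 0.1 added on a log axis, by treatment (SCI only, CT hydrogel, GF hydrogel). Points are libraries and the black lines are means of the plotted values. Zfp91 and Zfp706 are higher in all hydrogel libraries than in all SCI only libraries, and the Zfp868 mean in GF rests on 1 library. Of all genes tested, 18.9% had no overlap between CT and SCI only, and 14.2% none between GF and SCI only.

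Among the 4 members of smallest p in GF against SCI, 2 had groups that did not overlap (this was so for 8 of 118 members and 14.2% of all genes). Zfp91, a ubiquitin ligase with 5 fingers that acts in noncanonical NF-kB signalling, stood at 12.4, 7.52, 10.9 and 9.21 CPM in SCI only, at 20.2, 25.3 and 37.3 in CT and at 41.1, 13.8 and 82.9 in GF. Its means were 10.0 ± 2.12 (SD, n = 4), 27.6 ± 8.81 (n = 3) and 45.9 ± 34.8 (n = 3). The log2 difference of GF against SCI was 2.20 (SE 0.64, adjusted p = 0.104, edgeR), and that of CT against SCI 1.46 (SE 0.63, adjusted p = 0.338, edgeR). Without GF library 1687 the GF difference of Zfp91 passed, at 2.67 (adjusted p = 0.0325, edgeR). It also passed by DESeq2 with all libraries (adjusted p = 0.0199). In 12 of 14 alternative settings Zfp91 did not pass, with adjusted p up to 0.233 (edgeR).

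Zfp37, a 12-finger gene, was at 4.26, 0.193, 0.344 and 0 CPM in SCI only, against 4.12, 8.06 and 10.1 in CT and 10.96, 13.8 and 60.4 in GF. The SCI only library with 57 reads overlapped the CT libraries and no GF library. The log2 difference of GF against SCI was 4.45 (SE 1.15, adjusted p = 0.0793, edgeR). Leaving out SCI only library 9596 or GF library 1687 brought edgeR's adjusted p of Zfp37 to 0.0322 and 0.0436, and DESeq2 called it with all libraries (adjusted p = 0.00388). In 11 of 14 alternative settings Zfp37 did not pass, with adjusted p up to 0.196 (edgeR).

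Zfp36l1, a CCCH factor of messenger RNA decay, was tight in SCI only at 2.62, 1.74, 2.29 and 1.67 CPM. It was at 5.30, 5.70 and 16.1 CPM in CT and at 18.1, 45.7 and 1.72 in GF. CT lay above SCI only throughout, whereas 1 GF library was at the SCI level. Its log2 difference was 3.37 (SE 0.94, adjusted p = 0.0929, edgeR) for GF and 2.10 (SE 0.91, adjusted p = 0.341, edgeR) for CT. Without that GF library, 1732, the GF difference of Zfp36l1 passed at 3.94 (adjusted p = 0.0285, edgeR), and it passed by DESeq2 with all libraries (adjusted p = 0.00962). In 12 of 14 alternative settings Zfp36l1 did not pass, with adjusted p up to 0.214 (edgeR). The fourth gene, Zfp868, had 808 reads in GF library 1685 and 0 to 17 in every other HA library. Without library 1685 its log2 difference turned from 7.08 to -0.31 against SCI and from 6.39 to -1.02 against CT.

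The other 2 CCCH members did not separate. Zfp36 (tristetraprolin) had 3.75 ± 2.76 CPM in SCI only (n = 4), 2.83 ± 4.20 in CT (n = 3) and 8.10 ± 9.45 in GF (n = 3). Zfp36l2 had 4.41 ± 1.74, 6.66 ± 1.64 and 9.94 ± 5.26 CPM. All 3 CCCH members had positive values in GF against SCI (log2 1.09 to 3.37), none past edgeR's test and Zfp36l1 past that of DESeq2. Of all genes tested 52.5% were positive in GF against SCI. Of 11 tested genes of the decay machinery they work with, 0 passed in any of the 3 HA comparisons, with a median of 0.57 in GF against SCI.

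In CT against SCI the 4 members of smallest p were Zfp81, Zfp940, Zfp873 and Zfp266, all higher in CT in each library. Zfp81, a KRAB gene of the large chromosome 17 run, had 781, 290 and 102 reads in CT against 6, 0, 0 and 0 in SCI only and 2, 0 and 7 in GF. Its CT mean of 8.32 ± 8.38 CPM compares with 0.112 ± 0.224 in SCI only, a log2 difference of 5.80 (SE 1.59, adjusted p = 0.160, edgeR). Zfp81 passed when only the CT and SCI libraries were fitted (adjusted p = 0.0365, edgeR) and by DESeq2 (adjusted p = 0.0112). In 11 of 13 alternative settings Zfp81 did not pass, with adjusted p up to 0.529 (edgeR). Zfp940 and Zfp873 had no read in SCI only, so their CT means of 0.788 and 0.707 CPM were at least 8.10-fold and 7.27-fold higher than the floor of 3 reads over that group. Zfp81, Zfp940 and Zfp873 had passed the filter on low counts through their CT reads. A higher value in CT was in large part set by that selection. Zfp266 had 164, 1158 and 216 reads in CT against 22, 6, 7 and 1 in SCI only, and passed by DESeq2 (adjusted p = 0.0372) but not by edgeR (adjusted p = 0.226). 18 of the 118 members had CT and SCI only libraries that did not overlap, against 18.9% of all genes.

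In GF against CT, Zfp329, Zfp141 and Zfp52 had no read in GF. Against the floor of 3 reads over the GF group they were at least 9.17-fold, 5.85-fold and 9.10-fold lower than in CT, where Zfp329 had 66, 24 and 46 reads, Zfp141 42, 12 and 35, and Zfp52 25, 31 and 105. None of the 3 passed (adjusted p = 0.258 for each, edgeR), and the protein-coding depth of GF was lower than that of CT in every library. With no read in GF, all 3 had passed the filter on low counts through their CT reads. A lower value in GF than in CT was in large part set by that selection. 25 of 118 members had groups that did not overlap, against 18.4% of all genes.

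KRAB and other C2H2 members differed in how they were read. Of the 88 KRAB members 42 (47.7%) passed the HA filter and 22 (25%) stood in the FT table. Of the 104 C2H2 members without a KRAB match 69 (66.3%) passed and 47 (45.2%) stood in the FT table. Levels were lower too, with medians of 0.146 and 0.262 CPM per kilobase in HA CT. By finger number, 27 of the 40 members with 1 to 5 fingers (67.5%) were in the FT table, against 13 of the 57 with 6 to 10 (22.8%), 19 of the 58 with 11 to 15 (32.8%) and 10 of the 37 with 16 to 36 (27.0%). Beyond 5 fingers the share did not fall further, while the KRAB share was 40.4%, 67.2% and 59.5% in these 3 classes.

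The KRAB members' median log2 difference was 1.36 in CT against SCI, 0.02 in GF against SCI and -2.15 in GF against CT. In the last, 11 of 42 were positive (26.2%, against 46.7% of all genes). Members without a KRAB match gave 0.31, 0.46 and 0.11, with 37 of 69 (53.6%) positive in GF against CT. None of either class passed edgeR's test. DESeq2 called 2 of 88 KRAB members and 1 of 103 without a KRAB match in CT against SCI, beside 288 of 9363 genes. In GF against SCI it called 4 and 8, beside 761 genes, and in GF against CT 1 and 1, beside 307. These counts are out of all genes fitted, with or without an adjusted p. KRAB transcripts were poorer in GC (median 42.4%, against 48.2% without a KRAB match and 49.6% over all genes), and other genes between their lower and upper GC quartiles had medians of 1.10, 0.75 and -0.31. Of these other genes 42.3% were positive in GF against CT. After GC correction the KRAB medians were -0.09, 0.01 and -1.42, so that in CT against SCI changed sign. The same correction moved the medians of all genes from 0.27, 0.12 and -0.14 to -0.13, 0.45 and 0.57. For the other genes in the KRAB GC range the corrected medians were -0.14, 0.47 and 0.59. Leaving out 1 library at a time gave KRAB medians of 0.82 to 2.08, -2.47 to 0.43 and -3.97 to -1.51. For members without a KRAB match it gave 0.16 to 0.47, -0.21 to 0.52 and -0.77 to 0.31, so the sign in both GF comparisons depended on single libraries. Their lowest values came without GF library 1685 in GF against SCI and without GF library 1687 in GF against CT. The lowest KRAB median in GF against SCI also came without GF library 1685. 26 of the 42 KRAB members tested reached the filter's level in all 3 CT libraries and in fewer than 3 of each other group. That selection favours high values in CT, so these medians describe the members that passed. With no filter the medians of the 88 KRAB members were 0.82, -0.47 and -2.22, beside 0.33, -0.05 and -0.48 over all genes. The summed counts of all KRAB members, which need no filter, overlapped: KRAB members took 0.107%, 0.153%, 0.0982% and 0.141% of protein-coding counts in SCI only, 0.174%, 0.240% and 0.137% in CT, and 0.178%, 0.0722% and 0.0934% in GF.

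**Figure D3:**
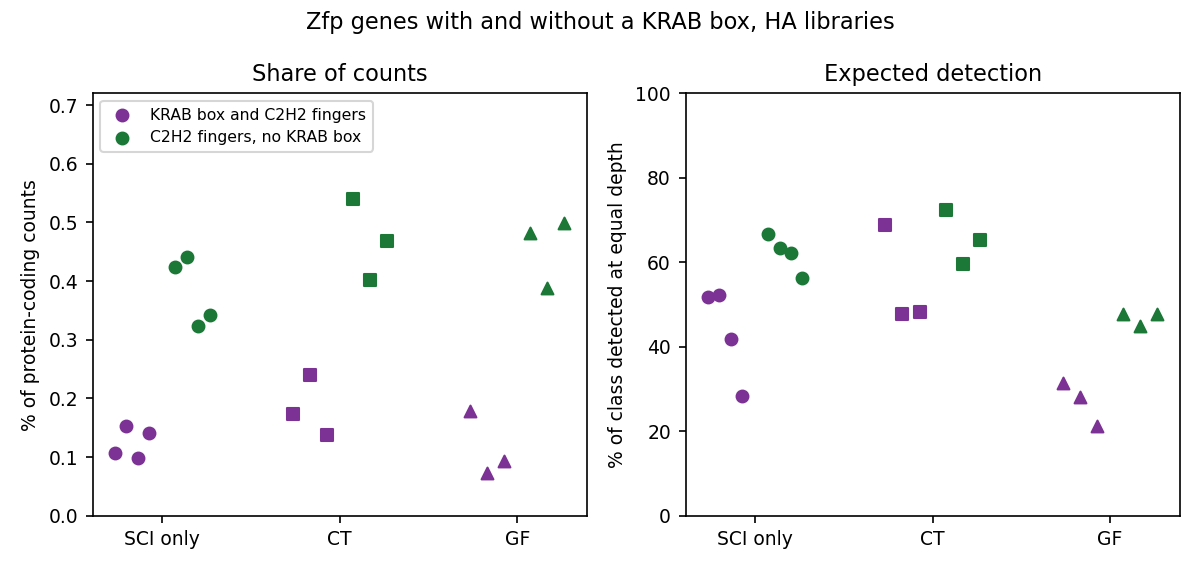
Zfp genes with a KRAB box pattern and C2H2 fingers (88 genes) and with C2H2 fingers only (103 genes in HA) in the 10 HA libraries. The left panel gives each class's percent of protein-coding counts and the right panel the percent of the class expected to have a read when every library is reduced to 202251 protein-coding counts. Points are libraries. On the right the GF libraries reach 21.3% to 31.4% of KRAB members and 44.9% to 47.8% of the others. SCI only libraries reach 28.4% to 52.2% and 56.3% to 66.8%, and CT libraries 47.7% to 68.9% and 59.5% to 72.5%. For all protein-coding genes the share was 55.4% to 58.6% in GF and 67.1% to 78.0% in the other libraries. On the left the KRAB values of the 3 treatments overlap.

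The corepressor that KRAB boxes bind was measured as well. Trim28 was at 10.9, 12.7, 3.21 and 4.46 CPM in HA SCI only, 0.879, 0.815 and 1.40 in CT and 0.183, 0.255 and 0.172 in GF. In the GF libraries 1 read was worth 0.0609, 0.255 and 0.0859 CPM, so the GF levels of Trim28 rest on very few reads. The 3 treatments did not overlap. Of all genes, 18.9% had CT and SCI only libraries that did not overlap, 14.2% GF and SCI only, and 18.4% GF and CT. The log2 differences of Trim28 were -2.92 (SE 1.07, adjusted p = 0.275, edgeR) for CT against SCI and -5.29 (SE 1.27, adjusted p = 0.0560, edgeR) for GF against SCI. Setdb1 was not analysed here. Of 14 tested genes of the corepressor list, 1 passed in GF against SCI: Atrx, a chromatin remodeller, at 65.5 ± 78.2 CPM in GF and 3.57 ± 2.30 in SCI only (log2 4.18, SE 0.89, adjusted p = 0.0411, edgeR). None passed in the other 2 HA comparisons.

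In the flow-through only Zfp706 passed the filter on low counts. It stood at 129, 172, 207 and 118 CPM in SCI only, 26.7, 59.1, 66.2 and 91.4 in CT, and 111, 123, 36.2, 67.4 and 151 in GF. These levels rest on 183, 76, 92 and 17 reads in SCI only, 1, 10, 22 and 12 in CT, and 3, 15, 2, 5 and 112 in GF. All CT libraries were below all SCI only libraries, opposite to HA, where CT was above. CT against SCI gave a log2 difference of -1.28 (SE 0.60, unadjusted p = 0.0432, adjusted p = 0.259, edgeR), GF against SCI -0.63 (adjusted p = 0.570, edgeR) and GF against CT 0.66 (adjusted p = 0.956, edgeR). edgeR called it in 0 of the 3 (3.11%, 3.77% and 0% of 610 genes tested were called), and DESeq2 called 0 of 11, 0 of 14 and 0 of 73 members with an adjusted p (5.77%, 4.01% and 0% of all genes with one). At an unadjusted p under 0.05 it stood only in CT against SCI (17.9% of genes did, with 18.7% and 3.77% in the other two), and 19.7% of genes had CT and SCI libraries that did not overlap. The difference between the fractions in this response was not tested.

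The second question was which transcripts the tagged ribosomes held relative to the rest of the tissue. Over the 10 title numbers sequenced in both fractions, 31 members could be tested in HA against FT. 1 passed (3.23%), against 20.6% of 3295 genes tested, and the call was higher in HA, as were 13.2% of all genes. 7 members had an unadjusted p under 0.05 (22.6%, against 32.4%). The members' median log2 difference was 0.42, beside 0.28 over all genes, and 21 of 31 were positive (67.7%, against 60.1% of all genes). With the title number as a replicate block 2 of 31 members passed, Zfp652 and Zfp91 (6.45%, against 20.4% of all genes). DESeq2, which gave an adjusted p to 71 members, called 5 (7.04%, against 22.9%). Of these Zfp652 and Zfp91 were higher in HA and Zfp639, Zfp719 and Zfp81 lower, and the members' median was -0.20, beside -0.09 over all genes.

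**Figure D4:**
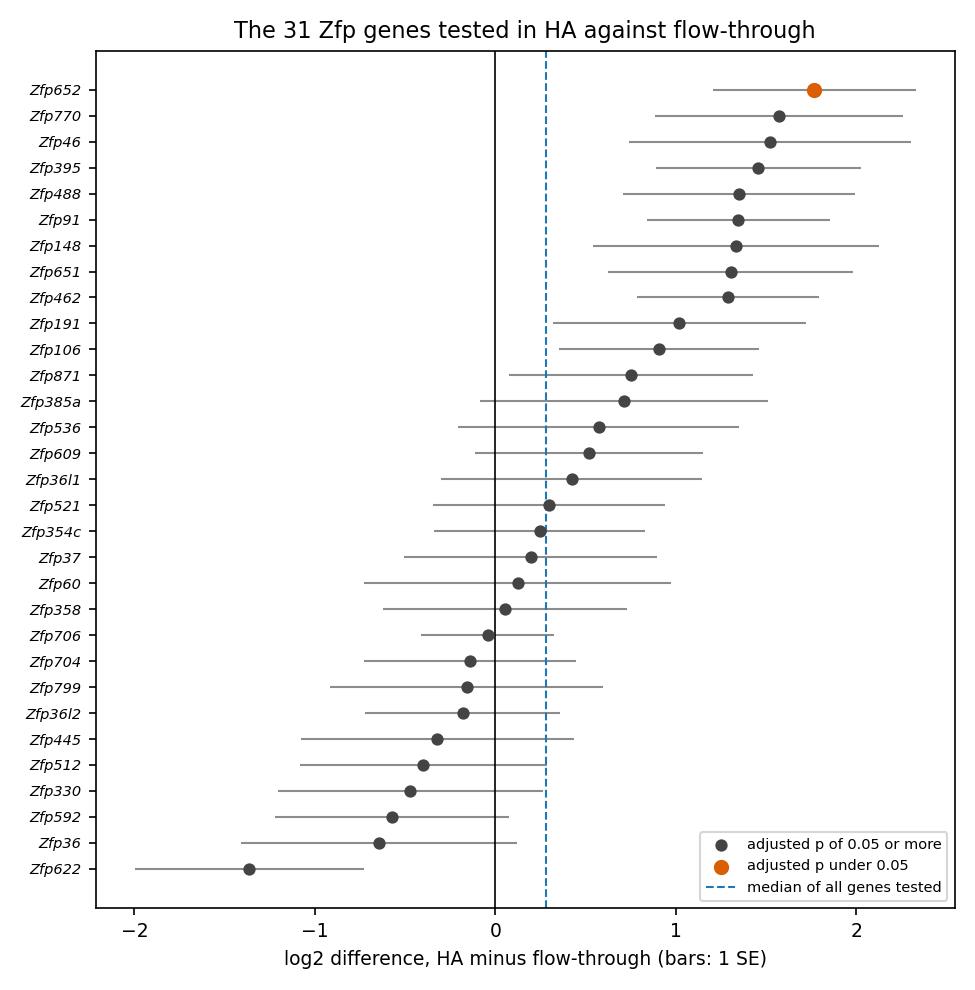
log2 difference of HA minus flow-through for the 31 Zfp genes tested, in order of size, with bars of 1 SE on each side. The orange point passed the test (Zfp652, 1.77) and the dashed line is the median of all genes tested (0.28). Values run from 1.77 down to -1.36 for Zfp622.

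Zfp652, a 7-finger repressor that acts with CBFA2T3, was the one called. On the scale shared by both fractions, its HA levels ran from 12.4 to 46.4 CPM, and its FT levels from 0 to 18.2 CPM with 0 reads in 3 libraries. HA was higher in 8 of 10 title numbers. The exceptions were SCI only numbers 9843 (12.4 in HA, 15.1 in FT) and 9874 (17.9 and 18.2). The mean was 24.6 ± 11.9 CPM in HA and 7.55 ± 6.71 in FT (n = 10 each), a log2 difference of 1.77 (SE 0.56, adjusted p = 0.0219, edgeR). The 2 fractions overlapped, as they did for all 31 members and for all but 2.12% of genes. In the 4 SCI only pairs the difference of Zfp652 was 0.89 (adjusted p = 0.411, edgeR). Leaving out number 9935 or 1759 raised its adjusted p to 0.0648 and 0.0612. Within HA its treatment groups overlapped, with means of 11.8 ± 8.07, 14.6 ± 5.86 and 16.9 ± 7.60 CPM on the HA scale.

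Zfp91, Zfp395 and Zfp462 came next. Zfp91 was higher in HA in 9 of 10 title numbers, with 15.1 to 136 CPM in HA and 0 to 33.2 in FT (log2 1.35, SE 0.51, adjusted p = 0.0554, edgeR). The FT side of Zfp91 rests on 83, 14, 18 and 1 reads in SCI only, 2, 15 and 2 in CT, and 0, 1 and 17 in GF. In the SCI only pairs alone its difference was 0.21 (adjusted p = 0.868, edgeR). With the replicate block Zfp91 passed at 1.53 (adjusted p = 0.0313, edgeR). Zfp462, a large protein with 33 fingers that is needed in early development, was likewise higher in 9 of 10 (log2 1.29, SE 0.51, adjusted p = 0.0666, edgeR). Its FT side rests on 26, 7, 5 and 2 reads in SCI only, 2, 1 and 1 in CT, and 1, 2 and 31 in GF. The exception for Zfp462 was GF number 1732, with 8.43 CPM in HA and 21.03 in FT. Without that number Zfp462 passed at 1.58 (adjusted p = 0.0215, edgeR). In 16 of 18 alternative settings Zfp462 did not pass, with adjusted p up to 0.406 (edgeR or DESeq2). Zfp395, a single-finger factor, was higher in 7 of 10 (log2 1.46, SE 0.57, adjusted p = 0.0658, edgeR). Without number 9935 or 1685 Zfp395 passed, with adjusted p = 0.0494 and 0.0467 (edgeR). In 15 of 18 alternative settings Zfp395 did not pass, with adjusted p up to 0.657 (edgeR or DESeq2).

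**Figure D5:**
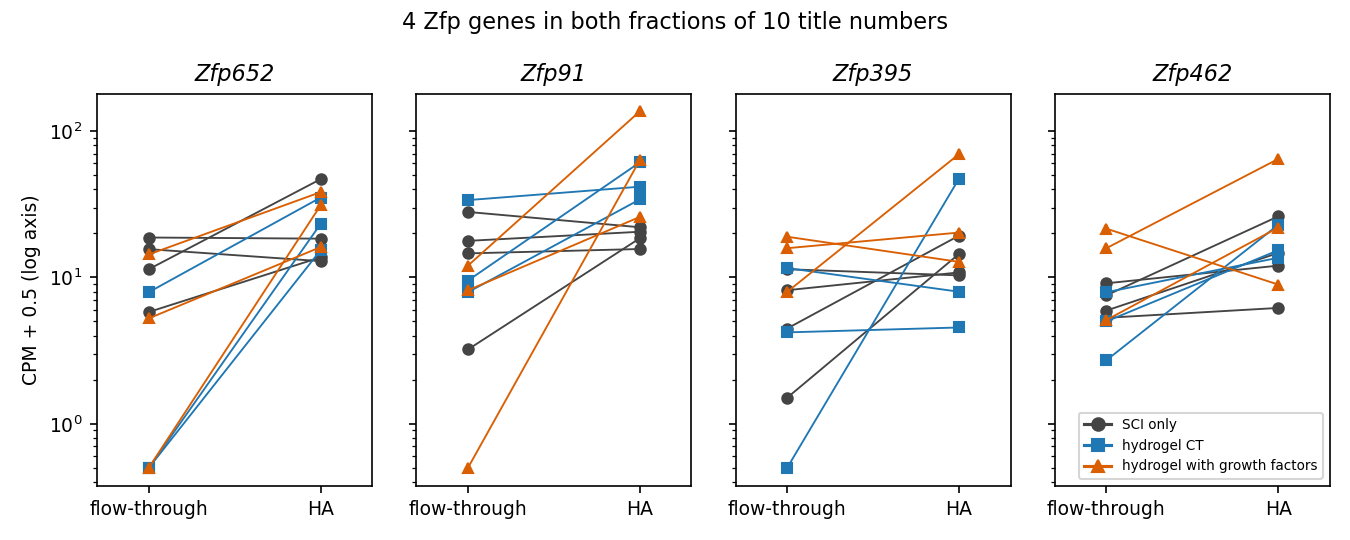
Level of 4 Zfp genes in the flow-through and HA library of each of 10 title numbers, as CPM with 0.5 added on a log axis. Lines join the libraries of 1 number and colours give the treatment. For Zfp652 the line rises in 8 of 10 numbers, for Zfp91 and Zfp462 in 9, and for Zfp395 in 7.

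Members with roles in neural and glial development had positive values without passing. 6 of them were tested and all 6 had positive values in HA against FT, from 0.30 to 1.35 with a median of 1.16. Of all genes tested 60.1% were positive in this comparison. They were Zfp488, Zfp191 (the older symbol of Zfp24, known in myelination), Zfp521, Zfp536, Zfp462 and Zfp148. Zfp488, a regulator of oligodendrocyte differentiation, had 19.1 ± 16.6 CPM in HA and 9.80 ± 11.9 in FT (n = 10 each; log2 1.35, SE 0.64, adjusted p = 0.139, edgeR). Oligodendrocyte progenitor markers were also higher in HA, with 7 of 8 tested passing and a median log2 difference of 2.57, as were 5 of 12 oligodendrocyte markers. Their part in the Zfp488 value was not tested. Zfp423, Zfp365 and Zfp292 were at 0 to 3.09 CPM in every HA library, and Zfp804b had reads in 2 FT libraries only.

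At the low end stood Zfp622, a ribosome biogenesis factor, with 1.73 ± 1.07 CPM in HA and 4.10 ± 3.33 in FT (log2 -1.36, unadjusted p = 0.0388, adjusted p = 0.130, edgeR). Zfp622 is named after its value was seen. The CCCH members lay near the middle, at 0.42 for Zfp36l1, -0.18 for Zfp36l2 and -0.64 for Zfp36. Of 8 tested decay partners 1 passed, the poly(A)-binding protein gene Pabpc1, lower in HA (log2 -2.06, SE 0.37, adjusted p = 0.000108, edgeR). Of 17 tested C2H2 genes of other families 2 passed, both higher in HA: Zbtb20 (log2 1.23, SE 0.40, adjusted p = 0.0239, edgeR) and Zeb1 (log2 1.37, SE 0.45, adjusted p = 0.0268, edgeR).

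The authors' deposited table, which tests transcripts and not genes, listed more members past a false discovery rate of 0.05. In HA, GF against SCI, 7 of 213 member rows passed there (3.29%, against 3.97% of all rows), 5 higher and 2 lower. By the authors' deposited table these were Zfp91, Zfp37, Zfp36l1, Zfp868 and Zfp943 on the higher side and Zfp870 and Zfp420 on the lower. In CT against SCI the authors' deposited table held 1 member row (0.469%, against 1.44% of all rows), Zfp81 (log2 fold change 5.91, false discovery rate 0.0219). In CT against GF the authors' deposited table held 0 member rows (0.597% of all rows passed). In FT the authors' deposited table held 3 of 73 member rows in each comparison with SCI (4.11%, against 9.08% of all rows with GF and 8.2% with CT), and 0 in CT against GF (0% of all rows). All were lower with the gel: Zfp385a and Zfp524 in both, Zfp36l2 with GF and Zfp651 with CT. Of these, Zfp385a had 36, 25, 31 and 4 reads in SCI only, 1, 0, 0 and 0 in CT, and 0, 0, 1, 0 and 4 in GF. In the fits here these FT genes had too few reads for the filter.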

How the data were processed

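RNA of 23 libraries was sequenced after amplification from 5 ng, per the labels' protocols, and the deposited tables give raw counts per Ensembl transcript on mm10, with the authors' own log2 fold changes and p-values from edgeR, per the file headers. CASAVA 1.8.2 and edgeR are named in the submitters' processing notes; no source used here names the aligner, counter or strand setting. Rows without a symbol (at most 0.319% of a library's counts) were left out, 45 columns that could not be assigned to a sample were not used, and counts were summed per symbol. Genes passing filterByExpr (minimum count 10) were normalised by TMM and tested with edgeR 4.0.16 (glmQLFit, glmQLFTest; R 4.3.3), with Benjamini-Hochberg adjustment over all genes and a threshold of 0.05. The 3 treatments of a fraction shared 1 fit; HA against FT was fitted on the 10 title numbers present in both fractions, unpaired.

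The fit scripts were tested on simulated counts. Alternatives were DESeq2 1.42.0 (shares called are of genes with an adjusted p), its size factors, other filters, GC correction, leaving out each library and a replicate block. The title numbers are shared by the fractions of the same tissue, but same-numbered libraries deviated together weakly (correlations of 0.00893 to 0.107, 2 of 10 above 0.1). C2H2 fingers were matched as 2 cysteines 2 to 4 residues apart and 2 histidines 3 to 5 apart with 12 residues between the pairs, and CCCH, KRAB and SCAN by patterns of their own, on the longest coding sequence in GENCODE M21. A missed match does not show that a domain is absent. Named members are those past the threshold, the 4 of smallest p in each comparison, the 10 most counted in HA and the 6 in FT, the CCCH and neural lists, and the ends of each sequence feature. Members named for a cluster, a near copy or the authors' deposited table alone were chosen after their values were seen. The members and lists were chosen with earlier results of these data known.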

Additional observations from a re-analysis of the deposited data

Results flagged for a closer look

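In groups of 4 or more libraries, a value was singled out when its gap to the nearest other library was large against the group's range (Dixon's test at 95%). For normally spread values chance alone does this in about 1 of 20 groups, but that rate does not hold for sparse counts. 9 of 40 groups examined were singled out. A group with reads in 1 library alone is always singled out, as were Zfp81, Zfp141 and Zfp52 in HA SCI only. The count of 9 therefore does not measure an excess over chance. The Zfp share of protein-coding counts was 0.581% in FT SCI only library 9874, above the other 3, and Zfp detection was 57.5% of listed members in FT SCI only library 9935, the shallowest of its group. In the HA SCI only group, library 9596, the deepest in protein-coding counts, stood apart as high for Zfp81 (0.449 CPM), Zfp37 (4.26 CPM), Zfp141 (0.224 CPM) and Zfp770 (15.2 CPM). Library 9874 was high for Zfp52 (0.574 CPM) and Zfp148 (21.1 CPM), and library 9935 for Zfp423 (1.67 CPM). The values of Zfp81, Zfp141, Zfp52 and Zfp423 rest on 6 reads or fewer.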

How the results depend on the processing

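The number of Zfp members past the threshold depended on the tool and filter. It was 0 in HA CT against SCI and became 3 with DESeq2 and 1 (Zfp81) with only the 2 groups fitted, while the share of all genes past the threshold went from 0.195% to 4.21% and 1.67%. It was 0 in HA GF against SCI, 13 with DESeq2 (all genes: 11.4%) and 0 to 3 when 1 library was left out. Without SCI library 9596 it was 1 (0.926% of members, against 0.0937% of all genes). Without GF library 1687 it was 3 (1.94%, against 1.60%), and without GF library 1732 it was 2 (1.27%, against 1.39%). HA GF against CT gave 0, and 2 with DESeq2 (4.84%). FT CT against SCI gave 0, and 1 (Zfp385a) with a minimum mean of 5 CPM (4.68%). Leaving out 1 library gave 0 in the other within-fraction comparisons. HA against FT gave 1, and 2 with DESeq2 size factors, 6 with no filter (5 higher, 1 lower), 5 with DESeq2 (2 higher, 3 lower), and 0 in the SCI only libraries, where 19.7%, 19.2%, 22.9% and 11.7% of all genes passed. Leaving out 1 title number there gave 0 to 2 (0 without 1759, 2 without 9596, 9935, 1685 or 1732), while 16.7% to 22.5% of all genes passed. In the paired fit with the replicate block the count was 2 (all genes: 20.4%), and 0 with the block and GC correction together (18.5%); 8 of 10 libraries correlated best with their own number. Zfp868 reversed without GF library 1685 (-0.31 against SCI, -1.02 against CT), and ranged up to 7.95 and 7.28 without other libraries. DESeq2 size factors lowered the median of all genes in HA CT against SCI from 0.27 to 0.05. The cause of these shifts was not tested.

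Members detected fell from a mean of 122 to 82 (HA SCI only), 179 to 153 (HA CT), 105 to 67 (HA GF), 63 to 37.5 (FT SCI only) and 34 to 6 (FT CT) when 5 reads were required. At equal protein-coding depth, an alternative chosen after seeing the data, the HA means were 110 (SCI only), 122 (CT) and 78.3 (GF). As a share of all counts instead of protein-coding counts, members made up 0.0113%, 0.233% and 0.0600% in HA and 0.0147%, 0.204% and 0.180% in FT (SCI only, CT, GF). A wider finger spacing found C2H2 fingers in 194 members in place of 192. Members with few reads, above all in FT, allow no statement on a difference.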
